A study of Mus musculus with 11 samples.

Results

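The nonclassical MHC class I genes of the mouse H2 complex were followed in sorted beta cells exposed to IFNγ. Members were taken by symbol, as H2-T23, H2-T22, H2-T24, H2-T10, H2-Q4, H2-Q6, H2-Q7 and H2-M3, which gave 8 of the 55487 genes in the files. The samples were 11 RNA-seq libraries of FACS-sorted beta cells from islets of C57BL/6JRj males aged 12 weeks, with no genetic modification stated for any group. PD-L1high cells (4 libraries, replicates 1 to 4) and PD-L1low cells (3 libraries, replicates 2 to 4) came from whole islets cultured for 20 h with IFNγ at 50 pg/mL and were separated by their surface PD-L1. Control beta cells (4 libraries, replicates 1 to 4) came from islets cultured without IFNγ. The PD-L1 gate was itself set on a product of an IFNγ target gene, so PD-L1high and PD-L1low are not randomly assigned groups, and PD-L1high and control cells differ in both the cytokine and the gate. The methods state that each n is an independent biological sample.

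Classical class I molecules, the products of H2-K1 and H2-D1, show peptides of the cell to CD8 T cells. The nonclassical genes lie farther along the same complex, vary less between mouse strains, and have narrower tasks. H2-T23 encodes the heavy chain of Qa-1, which holds a leader peptide of classical class I molecules for the CD94/NKG2 receptors of NK and T cells. H2-T22 and H2-T10 encode ligands of a set of γδ T cell receptors, H2-Q6 and H2-Q7 belong to the genes that encode Qa-2, H2-Q4 encodes Qb-1, and H2-M3 presents N-formylated peptides of bacteria and mitochondria. IFNγ is known to act on class I promoters through IRF1 and the transactivator NLRC5, and raised class I on beta cells is a known feature of islets in type 1 diabetes.

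All 8 genes lie on chromosome 17 (GRCm38). From low to high coordinates they were H2-Q4 (chr17:35379617-35385290, plus strand), H2-Q6 (chr17:35424850-35430055, plus), H2-Q7 (chr17:35439155-35443773, plus), H2-T24 (chr17:36005695-36020560, minus), H2-T23 (chr17:36029773-36032855, minus), H2-T22 (chr17:36037128-36042747, minus), H2-T10 (chr17:36115876-36121465, minus) and H2-M3 (chr17:37270220-37274484, plus). The annotation calls H2-T10 a polymorphic pseudogene and the other 7 protein coding.

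Promoter sequence was given for 6 of the 8 members by the RefSeq table (GRCm38.p6), which holds 250 bases before and 50 bases after a gene's start. Stretches of 160 bases are printed because they carry the letters that resemble the interferon-stimulated response element (ISRE) and, downstream of them, the boxes at which class I regulators are known to bind. Capitals mark every match to the letters searched, on either strand. These were GAAA, any 2 bases and GAAA again (ISRE-like), TTCNNNGAA (GAS-like, after the gamma-activated site), GGATTCC (kappa B-like), TGACG (CRE or X2-like) and CCAAT. Capitals also mark the run GTTTCACTTCT, which was found after the sequences were compared and was not among the letters searched.
H2-T23 (chr17:36032706-36032865, minus strand): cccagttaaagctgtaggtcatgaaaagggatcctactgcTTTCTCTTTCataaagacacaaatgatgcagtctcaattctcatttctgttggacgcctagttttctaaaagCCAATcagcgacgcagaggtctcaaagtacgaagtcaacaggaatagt
H2-T22 (chr17:36042814-36042973, minus strand): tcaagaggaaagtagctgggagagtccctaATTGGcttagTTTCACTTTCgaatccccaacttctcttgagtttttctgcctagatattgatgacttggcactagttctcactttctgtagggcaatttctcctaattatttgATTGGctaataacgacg
H2-Q4 (chr17:35379423-35379582, plus strand): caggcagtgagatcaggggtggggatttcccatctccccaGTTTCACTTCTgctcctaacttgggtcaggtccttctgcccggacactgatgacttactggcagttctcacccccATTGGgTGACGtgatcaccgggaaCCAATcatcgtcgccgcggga
H2-Q6 (chr17:35424657-35424816, plus strand): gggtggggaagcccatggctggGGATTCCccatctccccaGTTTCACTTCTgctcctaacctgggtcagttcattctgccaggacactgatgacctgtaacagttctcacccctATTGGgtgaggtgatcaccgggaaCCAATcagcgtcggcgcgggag
H2-Q7 (chr17:35439001-35439160, plus strand): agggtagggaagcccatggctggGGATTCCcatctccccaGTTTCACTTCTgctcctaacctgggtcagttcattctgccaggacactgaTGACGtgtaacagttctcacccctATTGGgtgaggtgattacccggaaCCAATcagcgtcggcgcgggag
H2-M3 (chr17:37270092-37270251, plus strand): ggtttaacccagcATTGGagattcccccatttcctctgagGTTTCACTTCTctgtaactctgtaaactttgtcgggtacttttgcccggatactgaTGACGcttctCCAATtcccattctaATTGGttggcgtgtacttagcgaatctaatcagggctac

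The T region genes H2-T23 and H2-T22 each held the full ISRE-like letters, read on the opposite strand, beginning at positions -124 and -191 relative to the start. These letters occurred in 3.44% of the 32851 promoters of the table. The Q region genes and H2-M3 did not hold these exact letters in the window, and near matches were not searched. H2-Q4, H2-Q6, H2-Q7 and H2-M3 shared the 11-base run GTTTCACTTCT at positions -154, -153, -114 and -102, as did the classical H2-K1 and H2-D1. The run was in 19 of 32851 promoters (0.0578%), and its first 9 bases, also present in H2-T22, were in 131 (0.399%). In H2-T22 those 9 bases begin at position -192 and overlap its ISRE-like letters. The exact kappa B-like letters GGATTCC were in H2-Q6 and H2-Q7 (3.79% of all promoters). At the matching place H2-Q4 reads ggggatttccc, a near match that the exact search did not count. TGACG was in H2-T22, H2-Q4, H2-Q7 and H2-M3 (20.8%). CCAAT, alone or in several copies, was in all 6 promoters (37.4% of all promoters). H2-M3 was the one member with the GAS-like letters (8.30%), at position -209 and outside the printed stretch. The H2-Q6 and H2-Q7 promoters were 97.3% identical over 261 aligned columns, H2-Q4 and H2-Q6 82.6% over 304, and H2-T23 and H2-T22 53.3% over 323. The matches are a description of letters and not of bound factors.

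**Figure D1:**
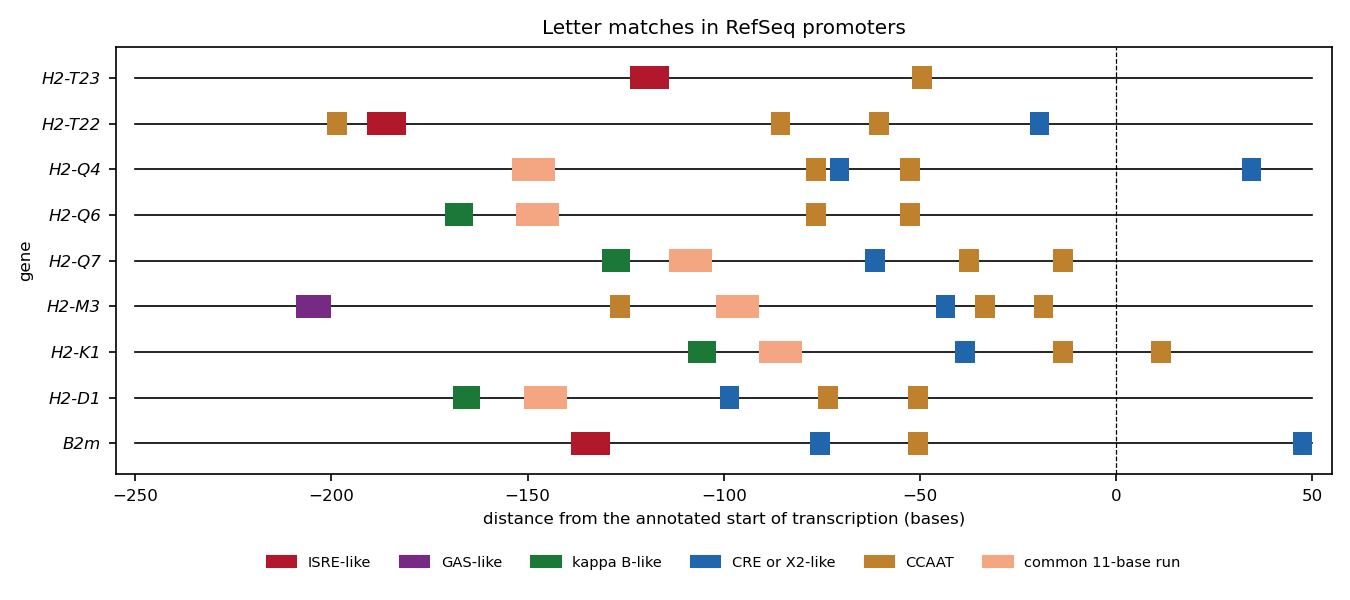
Positions of the letter matches in the RefSeq promoters of 6 nonclassical genes and of H2-K1, H2-D1 and B2m, in bases from the annotated start (dashed line). H2-T23, H2-T22 and B2m carry the full ISRE-like letters, and the other 6 genes carry the common run of 11 bases. The search took exact letters, so near matches are not marked.

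Libraries held between 10422038 and 15810817 expected counts. Beta cell markers were high in every library, with summed levels of 62129 to 90412 CPM (counts relative to the TMM-scaled library size) in PD-L1high, 71934 to 77314 in PD-L1low and 60909 to 93673 in control cells. Some libraries stood apart in ways that touch the genes below. Control replicate 1 had the highest share of mitochondrial counts (13.3%, against 5.54% to 11.9% in the other 10 libraries) and the highest H2-Q4, H2-Q6 and H2-Q7 of the control libraries. The PD-L1low libraries had less of the pancreatic polypeptide cell transcripts Ppy and Pyy (summed, 26.8 to 33.5 CPM) than PD-L1high (233 to 562 CPM) and control (149.8 to 382 CPM) libraries. In bulk samples, fewer cells of a type and less RNA per cell cannot be told apart. Cd274, the gene for PD-L1, was higher by 3.42 on the log2 scale in PD-L1high than in control cells and by 2.48 than in PD-L1low cells, which the gate had chosen, and by 0.94 in PD-L1low than in control cells.

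In PD-L1high beta cells, 5 of the 8 nonclassical genes were higher than in control cells, namely H2-T23, H2-T22, H2-Q4, H2-Q6 and H2-Q7, by 2.85-fold to 21.0-fold. H2-M3 and H2-T24 did not pass the test, and H2-T10 was too low to enter it. None was lower. Of all 16252 genes tested, 0.941% were higher and 0.0492% were lower in this comparison (edgeR's quasi-likelihood test, Benjamini-Hochberg adjusted p under 0.05). The median log2 fold change of the 7 members tested was 2.21, against -0.02 over all genes tested, but a gene that entered the test only through the group where it is high had to differ, so these counts are a description.

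H2-T23, the Qa-1 gene, had the largest fold change of the T region genes. It stood at 116, 125, 109.8 and 91.1 CPM in PD-L1high replicates 1 to 4, at 27.9, 21.0 and 21.6 CPM in PD-L1low replicates 2 to 4, and at 22.7, 28.4, 21.7 and 22.4 CPM in control replicates 1 to 4. All PD-L1high libraries lay above all others, and the PD-L1low and control libraries covered the same range. The log2 fold change between PD-L1high and control cells was 2.21 (95% interval 1.97 to 2.46, edgeR adjusted p = 1.69e-08), or 4.64-fold. Between PD-L1low and control cells it was -0.02 (interval -0.29 to 0.25, edgeR adjusted p = 0.9998). The interval leaves room for at most a 1.19-fold higher level in PD-L1low cells.

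H2-T22, a γδ T cell receptor ligand gene, moved less. It had 49.7, 49.2, 61.0 and 64.9 CPM in PD-L1high cells, 21.2, 25.7 and 25.5 CPM in PD-L1low cells, and 17.2, 23.3, 19.1 and 18.8 CPM in control cells. The PD-L1high libraries again did not overlap the rest, and the PD-L1low and control libraries did overlap. The rise between PD-L1high and control cells was 1.51 on the log2 scale (1.21 to 1.81, edgeR adjusted p = 1.12e-05), and the difference between PD-L1low and control cells was 0.24 (-0.10 to 0.57, edgeR adjusted p = 0.9998).

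H2-T24, whose transcripts shared no 75-base window with another class I gene, scattered without order. It had 8.30, 4.69, 6.21 and 12.4 CPM in PD-L1high cells, 7.87, 6.06 and 5.97 CPM in PD-L1low cells, and 11.6, 5.10, 12.8 and 7.88 CPM in control cells. The 3 groups overlapped. Its log2 fold change was -0.26 (-0.93 to 0.42) between PD-L1high and control cells, which allows anything from a 0.523-fold to a 1.34-fold level. H2-T10 was near the limit of detection, with 0 to 18.16 expected counts in PD-L1high, 0 to 15.9 in PD-L1low and 2.75 to 8.17 in control libraries. Its 2 libraries at 0, PD-L1high replicate 4 and PD-L1low replicate 4, allow up to 0.288 and 0.204 CPM on unscaled library totals (3 counts, counting error only). No difference in H2-T10 was detectable at this depth.

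Against control cells, the Q region genes had the largest fold changes of the 7 members tested in PD-L1high cells. H2-Q4, the Qb-1 gene, had 134, 95.5, 107 and 81.8 CPM in PD-L1high cells, 32.7, 30.0 and 36.3 CPM in PD-L1low cells, and 32.0, 19.6, 15.3 and 18.3 CPM in control cells. Every PD-L1high library was above every other, and the PD-L1low libraries were above control replicates 2 to 4 and on both sides of control replicate 1. The log2 fold changes were 2.33 (2.03 to 2.63, edgeR adjusted p = 7.99e-08) between PD-L1high and control cells and 0.85 (0.52 to 1.18, edgeR adjusted p = 0.0633) between PD-L1low and control cells.

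H2-Q6, a gene of the Qa-2 group, had 35.0, 29.6, 34.6 and 17.2 CPM in PD-L1high cells, 4.64, 5.62 and 2.95 CPM in PD-L1low cells, and 3.72, 0.675, 1.03 and 0.896 CPM in control cells. The lowest PD-L1high library was above the highest of the others, and PD-L1high replicate 4 was the lowest of its group. The counts behind the control values were 48 in replicate 1 and 9.25 to 17.07 in the other 3. The log2 fold change between PD-L1high and control cells was 4.39 (3.72 to 5.06, edgeR adjusted p = 5.86e-07), the largest among the members, and it was 4.94 without control replicate 1 and 5.04 when the replicate term was also dropped. Between PD-L1low and control cells it was 1.93 (1.17 to 2.69, edgeR adjusted p = 0.0734).

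H2-Q7, also of the Qa-2 group, followed H2-Q6. It had 24.5, 20.9, 23.98 and 13.8 CPM in PD-L1high cells, 4.39, 5.10 and 2.04 CPM in PD-L1low cells, and 4.58, 0.975, 1.51 and 1.52 CPM in control cells. Here too the PD-L1high libraries stood clear of the rest, while control replicate 1 lay within the PD-L1low range. The log2 fold change was 3.43 (2.73 to 4.12, edgeR adjusted p = 1.26e-05) between PD-L1high and control cells, and 1.19 (0.41 to 1.98, edgeR adjusted p = 0.9998) between PD-L1low and control cells.

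H2-M3, the gene for the presenter of N-formylated peptides, had 9.91, 9.54, 8.57 and 12.05 CPM in PD-L1high cells, 5.38, 6.66 and 4.91 CPM in PD-L1low cells, and 3.57, 8.47, 5.86 and 6.54 CPM in control cells. The PD-L1high libraries were above all others, by a narrow margin over control replicate 2. The log2 fold change of 0.76 between PD-L1high and control cells (0.18 to 1.34, edgeR adjusted p = 0.444) did not pass the test. The value between PD-L1low and control cells was -0.18 (-0.81 to 0.46).

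**Figure D2:**
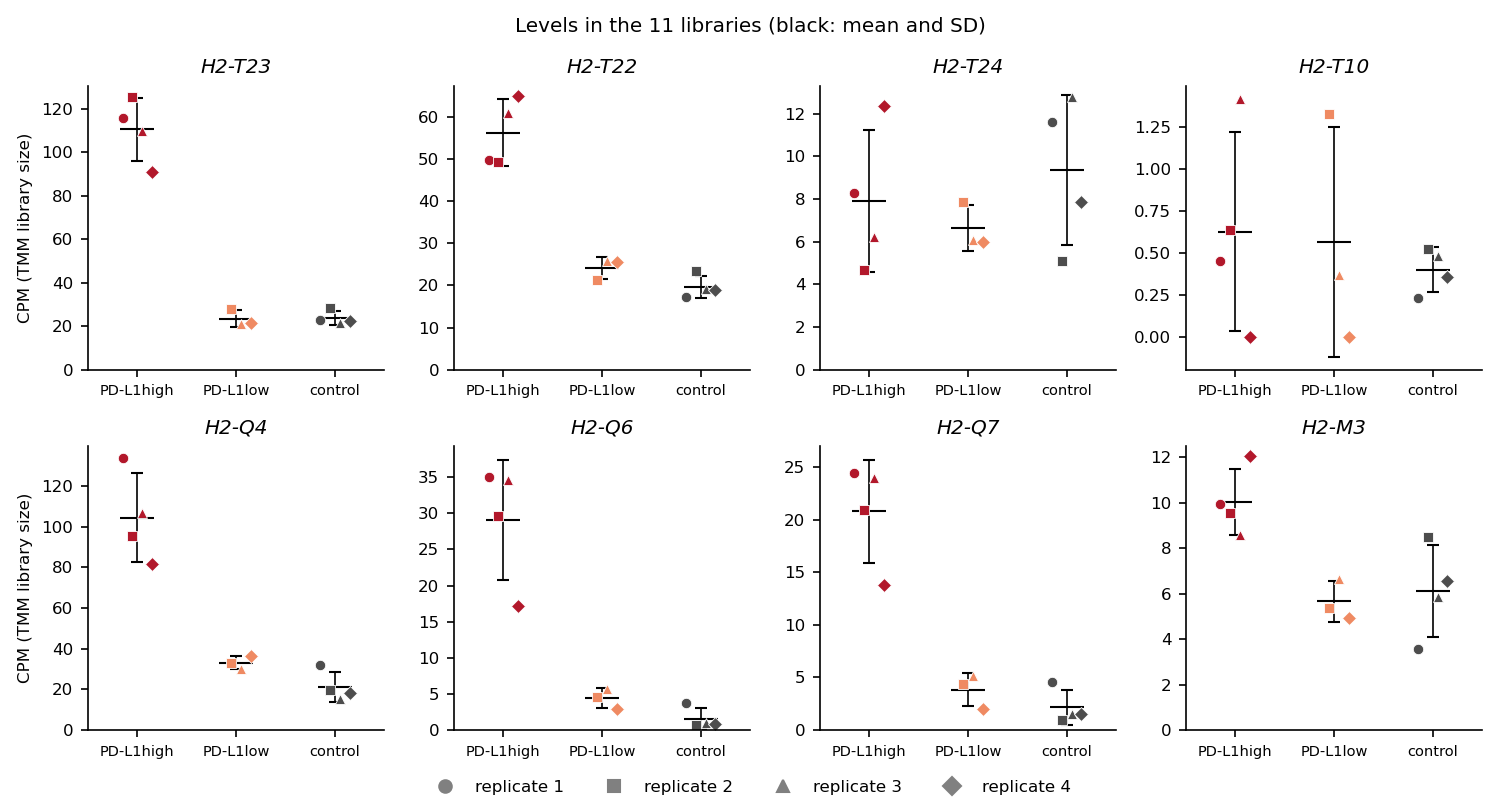
CPM of each nonclassical gene in the 11 libraries, with PD-L1high, PD-L1low and control cells from left to right, 1 symbol per replicate number and the mean and SD in black. PD-L1high libraries lie above all others for H2-T23, H2-T22, H2-Q4, H2-Q6 and H2-Q7. They do so by a narrow margin for H2-M3, which did not pass the test. The share of all genes that separate in this way was not computed, so this is a description. Control replicate 1 (circle) is the highest control for H2-Q4, H2-Q6 and H2-Q7.

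The comparison of PD-L1low with control cells asks what the gene set did in beta cells of treated islets that kept little PD-L1 at the surface. None of the 7 members tested passed in this comparison, where 0.0615% of all genes tested were higher and 0.0185% lower. At an unadjusted p under 0.05 there were 3 members, H2-Q4, H2-Q6 and H2-Q7. The share of all genes at that unadjusted threshold is not given here, so this count is a description. DESeq2 called 2 members, H2-Q4 (log2 fold change 0.86, DESeq2 adjusted p = 0.000583) and H2-Q6 (1.97, DESeq2 adjusted p = 0.000228), and limma-voom called H2-Q4 alone (limma adjusted p = 0.0320). Of the 16252 genes tested, DESeq2 called 47 and limma-voom 23 in this comparison, against 13 with edgeR. With a library left out, edgeR called 8 to 43 genes. In the 3 replicate numbers that both groups share, H2-Q4 was higher in PD-L1low cells in 3 of 3 by 0.74 to 0.99 on the log2 scale, H2-Q6 by 1.72 to 2.78 and H2-Q7 by 0.42 to 2.17, whereas H2-T23 was lower in 3 of 3, by no more than 0.06 on that scale. These differences between members were not tested. Without control replicate 1 the edgeR test called H2-Q4 (0.90, adjusted p = 0.0173) and H2-Q6 (2.33, adjusted p = 0.000761). Leaving out a library of the third group, which enters the shared fit, also changed the call: both genes were called without PD-L1high replicate 1 (adjusted p = 0.0254 for H2-Q4 and 0.00213 for H2-Q6), and H2-Q4 alone without PD-L1high replicate 3 (adjusted p = 0.0273).

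Within the treated islets, PD-L1high cells had more of the same 5 genes than PD-L1low cells, where 0.64% of all genes tested were higher and 0.0923% lower. Both comparisons that involve PD-L1high cells rest on the same 4 libraries, so the second is not independent of the first. The log2 fold changes were 2.23 for H2-T23 (1.95 to 2.51, edgeR adjusted p = 3.37e-07), 1.27 for H2-T22 (0.94 to 1.61, edgeR adjusted p = 0.000476) and 1.48 for H2-Q4 (1.15 to 1.80, edgeR adjusted p = 6.87e-05). For the Qa-2 genes they were 2.46 for H2-Q6 (1.80 to 3.12, edgeR adjusted p = 0.000549) and 2.23 for H2-Q7 (1.51 to 2.96, edgeR adjusted p = 0.00280). H2-M3 had 0.94 (0.28 to 1.59, edgeR adjusted p = 0.361) and H2-T24 had 0.08 (-0.68 to 0.85). For H2-T23 the values against PD-L1low and against control cells were nearly the same, 4.70-fold and 4.64-fold, while for H2-Q6 they were 5.50-fold and 21.0-fold. The summed markers of other endocrine cells were also higher in PD-L1high than in PD-L1low libraries. Besides Ppy and Pyy, the 4 delta cell markers summed to 11.6 to 39.5 CPM in PD-L1high and 3.51 to 9.19 CPM in PD-L1low libraries, and the 6 alpha cell markers to 562 to 1484 CPM in PD-L1high and 349.3 to 353 CPM in PD-L1low libraries, without overlap. In control libraries the alpha cell sum was 323 to 1388 CPM and the delta cell sum 6.82 to 33.4 CPM. Both overlapped the ranges of PD-L1high and of PD-L1low libraries. The part of other endocrine cells in the fold changes of the members was not tested.

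**Figure D3:**
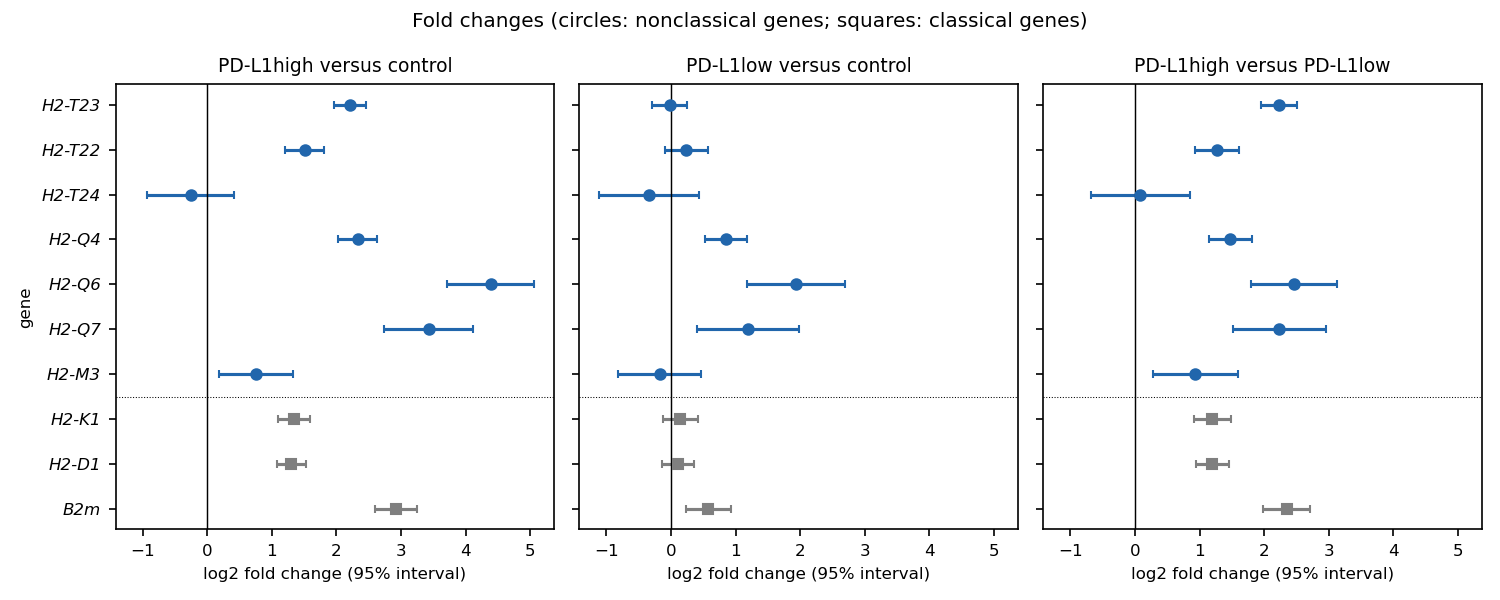
Log2 fold change with its 95% interval (edgeR) for the 7 nonclassical genes tested and, under the dotted line, for H2-K1, H2-D1 and B2m, in the 3 comparisons. Next to control, H2-T23 sits at 2.21 in PD-L1high and at -0.02 in PD-L1low cells, while H2-Q4, H2-Q6 and H2-Q7 have intervals above 0 in both. The intervals are per gene and not adjusted for the number of genes tested. In PD-L1low against control cells none of these genes passed the adjusted test, nor did H2-M3 in PD-L1high cells, where its interval is also above 0.

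Between genes, levels were compared as TPM, which accounts for transcript length. In PD-L1high cells the order was H2-T23 (88.7 ± 21.4 TPM), H2-Q4 (59.8 ± 20.3), H2-T22 (36.4 ± 1.11), H2-Q6 (16.03 ± 5.75), H2-Q7 (9.80 ± 3.60), H2-M3 (8.27 ± 1.17), H2-T24 (3.96 ± 1.40) and H2-T10 (0.235 ± 0.176; SD, n = 4). The ranges of H2-T23 and H2-Q4 over libraries overlapped, as did those of H2-Q6 with H2-Q7 and H2-Q7 with H2-M3. H2-T22 lay apart from its neighbours on both sides. Within each PD-L1high library H2-T23 was above H2-Q4 and H2-Q6 above H2-Q7, while H2-Q7 was below H2-M3 in replicate 4. In PD-L1low cells H2-T23 (17.5 ± 4.69 TPM), H2-Q4 (17.5 ± 1.38) and H2-T22 (14.8 ± 2.24) overlapped in range. Each of the next 4, led by H2-M3 (4.45 ± 1.24), overlapped its neighbour (SD, n = 3). Within each of these libraries H2-Q4 was above H2-T22, while the place of H2-T23 varied. H2-M3 was above H2-T24 and H2-T24 above H2-Q6 in each as well, and H2-Q6 was just below H2-Q7 in replicate 4. In control cells the order was H2-T23 (17.2 ± 3.87 TPM), H2-T22 (11.9 ± 2.98), H2-Q4 (10.36 ± 2.07), H2-M3 (4.85 ± 1.95), H2-T24 (4.42 ± 1.73), H2-Q7 (0.890 ± 0.296), H2-Q6 (0.720 ± 0.507) and H2-T10 (0.135 ± 0.0676; SD, n = 4). There the ranges of the first 3, of H2-M3 with H2-T24, and of H2-Q7 with H2-Q6 overlapped. Within each control library H2-T23 was above H2-T22, and the order of H2-M3 and H2-T24 varied. In control replicate 1 H2-Q4 was above both H2-T23 and H2-T22, and H2-Q6 was above H2-Q7. H2-Q6 ranked 4 in PD-L1high, 6 in PD-L1low and 7 in control cells.

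The 8 genes together had 223 ± 47.8 TPM in PD-L1high, 62.1 ± 10.403 TPM in PD-L1low and 50.5 ± 6.20 TPM in control cells (SD, n = 4, 3 and 4). H2-T23 made up 39.6% ± 3.70 of that sum in PD-L1high, 27.9% ± 3.81 in PD-L1low and 33.7% ± 3.68 in control cells. H2-Q6 made up 7.00% ± 1.46 in PD-L1high, 3.58% ± 1.08 in PD-L1low and 1.54% ± 1.30 in control cells. H2-M3 and H2-T24 held smaller shares of the larger sum, H2-M3 with 3.83% ± 0.989 in PD-L1high, 7.10% ± 1.19 in PD-L1low and 9.34% ± 2.96 in control cells. H2-T24 had 1.89% ± 1.00 in PD-L1high, 5.14% ± 0.633 in PD-L1low and 8.96% ± 3.69 in control cells.

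**Figure D4:**
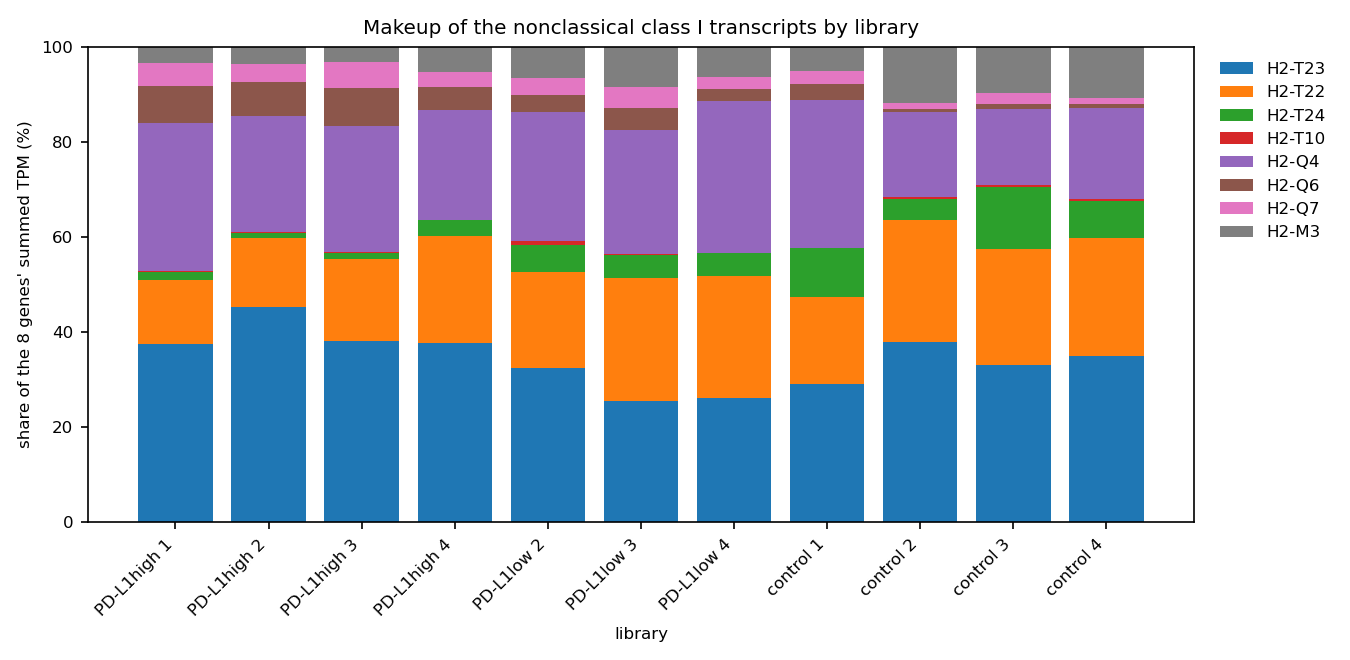
Share of the summed TPM of the 8 nonclassical genes that each gene held, 1 bar per library, with PD-L1high, PD-L1low and control libraries from left to right. H2-T23, H2-T22 and H2-Q4 fill most of every bar, and the share of H2-Q6 averages 7.00% in PD-L1high and 1.54% in control libraries.

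Whether the nonclassical genes kept step with classical class I was read from the log2 ratio of each gene's count to the H2-K1 count of the same library. H2-K1 itself had 779, 761, 834 and 755 CPM in PD-L1high cells, 339.8, 416 and 303 CPM in PD-L1low cells, and 257, 366, 308 and 305 CPM in control cells, with a log2 fold change of 1.35 between PD-L1high and control cells. Against it, the ratio of H2-T23 was higher by 0.86 in PD-L1high than in control cells, with means of -2.83 ± 0.20 and -3.69 ± 0.14 (SD, n = 4 each, exact permutation p = 0.0286, two-sided). The ratio of H2-Q6 was higher by 3.10 and that of H2-Q7 by 2.12 (exact permutation p = 0.0286 for both). For H2-T23, H2-Q6 and H2-Q7 the groups did not overlap. The share of all genes whose ratio separates in this way was not computed, so this is a description. The ratio of H2-Q4 was higher by 0.97 (exact permutation p = 0.0571), with control replicate 1 inside the PD-L1high range.

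H2-T22 kept the ratio nearest to that of H2-K1, with a difference of 0.17 (means -3.81 ± 0.20 in PD-L1high and -3.97 ± 0.06 in control cells, exact permutation p = 0.171, n = 4 each). H2-M3 and H2-T24 had lower ratios to H2-K1 in PD-L1high than in control cells, by -0.58 and -1.60, each with an exact permutation p of 0.0571. H2-K1 itself rose by 1.35, so a gene at an unchanged level has a ratio lower by about that much. A lower ratio is therefore not a fall in the gene's own level. The H2-T10 difference of -1.41 had an exact permutation p of 0.200 and rests on the counts near 0. The smallest p that 4 against 4 libraries can give is 0.0286. After adjustment for the 8 tests none passed, the lowest adjusted value being 0.0762 (exact permutation tests, Benjamini-Hochberg).

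**Figure D5:**
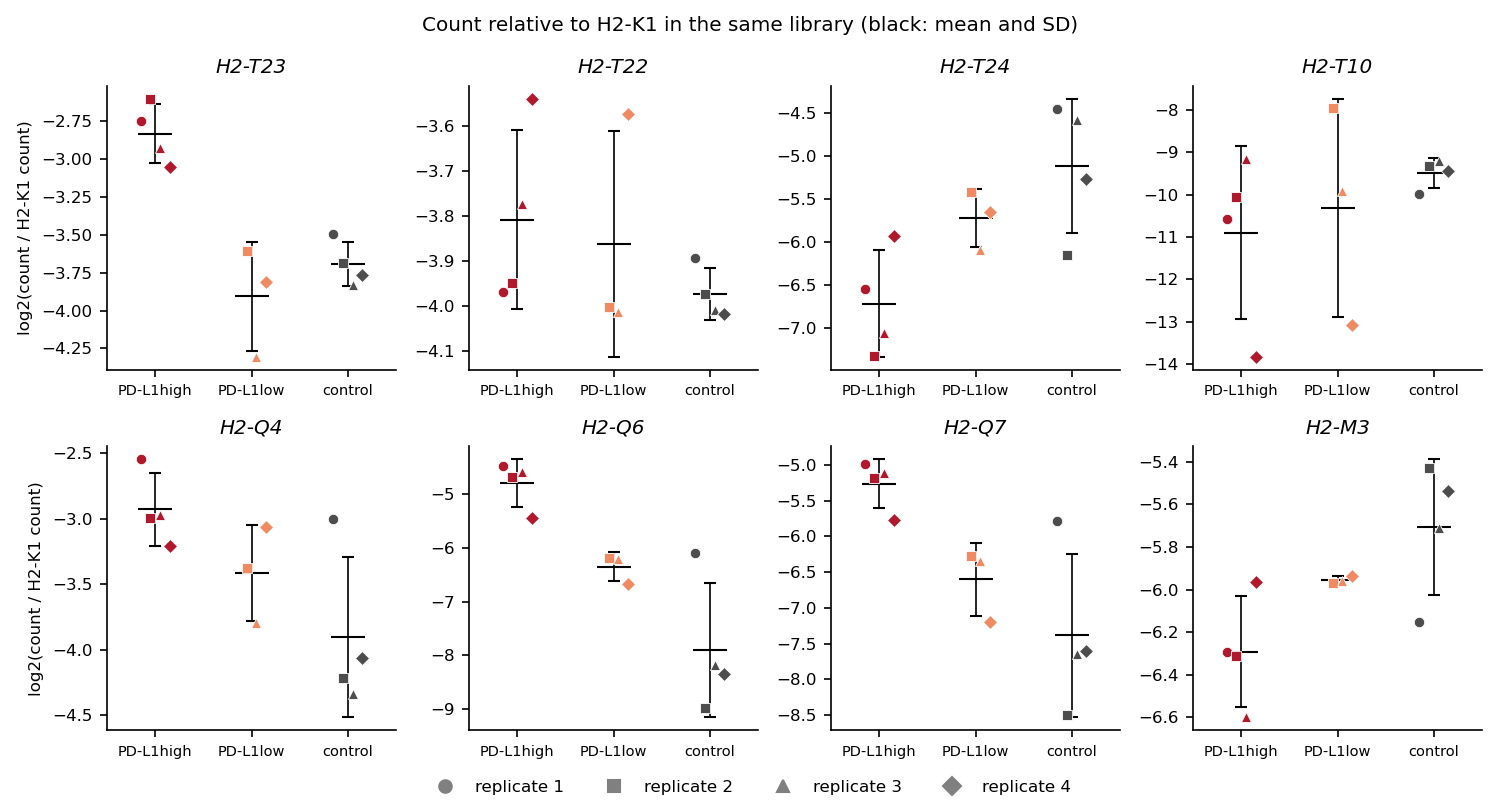
Log2 ratio of each nonclassical gene's count to the H2-K1 count of the same library, with PD-L1high, PD-L1low and control cells from left to right, 1 symbol per replicate number and the mean and SD in black. PD-L1high libraries lie above the control libraries for H2-T23, H2-Q6 and H2-Q7, and the H2-T22 means of -3.81 and -3.97 are the closest.

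The relation of genes within the family also differed between libraries. H2-Q4 counts per H2-T23 count were 0.763 to 1.15 in PD-L1high, 1.17 to 1.68 in PD-L1low and 0.693 to 1.41 in control libraries, the highest control being replicate 1. H2-Q6 counts per H2-Q7 count were 1.25 to 1.44 in PD-L1high, 1.06 to 1.45 in PD-L1low and 0.588 to 0.808 in control libraries. These ratios are not corrected for length, so only libraries can be compared by them, and they are descriptions without a test.

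Class I genes are near copies of each other, so reads can fit several of them and RSEM splits such reads by estimation. In the transcripts of the annotation, 18.5% of the 75-base windows of H2-T22, 17.9% of H2-Q6, 16.95% of H2-Q7 and 16.05% of H2-T10 also occurred in another gene, against 7.02% of H2-Q4, 5.91% of H2-T23, 0.459% of H2-T24 and none of H2-M3. H2-T10 and H2-T22 shared 581 windows with each other, and H2-Q7 shared 416 with H2-Q10, 249 with H2-Q5 and 197 with H2-Q6. Expected counts were more than 0.005 away from a whole number, as happens when reads are split between genes, in 11 of 11 libraries for H2-Q4, 10 for H2-T22, 9 for H2-T10, 8 for H2-Q6, 6 for H2-Q7, 4 for H2-T23 and none for H2-T24 and H2-M3. Levels of H2-Q6, H2-Q7, H2-T22 and H2-T10, and in part H2-Q4, are therefore uncertain one by one. H2-Q10, with 0 to 13.11 counts in PD-L1high, 0 to 13.02 in PD-L1low and 0 to 4.07 in control libraries, and H2-Q5 are not part of the sum that follows. Summed counts of H2-Q6 and H2-Q7 gave a log2 fold change of 3.92 between PD-L1high and control cells (3.29 to 4.55, edgeR adjusted p = 2.51e-06) and 1.56 between PD-L1low and control cells (edgeR adjusted p = 0.223). The sum of H2-T22 and H2-T10 gave 1.499 (1.20 to 1.80, edgeR adjusted p = 1.03e-05) between PD-L1high and control cells.

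Of 31 further nonclassical genes of the complex and its relatives (other H2-Q, H2-T and H2-M genes, Hfe, Mr1 and CD1 among them), 5 had enough counts to be tested, and none passed in any of the 3 comparisons (edgeR). At an unadjusted p under 0.05 there were 3 between PD-L1high and control cells, 0 between PD-L1low and control cells and 1 between PD-L1high and PD-L1low cells. These counts come without the share of all genes at that threshold and are a description. H2-Q2 was the most abundant of the 5, with 97.7 ± 8.73 CPM in PD-L1high, 73.2 ± 8.91 CPM in PD-L1low and 75.1 ± 11.2 CPM in control cells, and a log2 fold change of 0.38 between PD-L1high and control cells (edgeR adjusted p = 0.398). H2-Q5, which shares windows with H2-Q7, had 16.01 to 27.52 counts in PD-L1high, 3.53 to 9 in PD-L1low and 0 to 5.50 in control libraries. On these few counts its log2 fold change between PD-L1high and control cells was 4.01 (1.62 to 6.40, edgeR adjusted p = 0.189). Hfe and Mr1, class I relatives in iron uptake and in the display of vitamin B metabolites, had -0.40 and 0.21. No gene of the NKG2D ligand list could be tested.

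Other genes of the class I pathway also rose in PD-L1high cells. B2m, the light chain that class I heavy chains pair with, was higher by 2.92 between PD-L1high and control cells (edgeR adjusted p = 1.96e-08), and with H2-K1 and H2-D1 (1.31) made 3 of 3 classical genes. Of the 8 genes of peptide loading, 5 were higher, Tap1 (3.41), Tap2 (1.82), Tapbp (1.48), Tapbpl (1.45) and the peptide-trimming Erap1 (1.07), while the chaperones Calr, Canx and Pdia3 had 0.14 to 0.18. Among transactivation genes, Nlrc5 (3.99) and Irf1 (1.80) were higher, and the RFX subunits Rfx5, Rfxank and Rfxap did not pass. In PD-L1low against control cells Tap1 (1.56, edgeR adjusted p = 0.000421) was the 1 gene of the 8 loading genes that passed. None of the 3 classical genes passed (edgeR, 1 at an unadjusted p under 0.05, given without the share over all genes). Nlrc5 was higher by 3.02 there (2.06 to 3.97) and just missed the threshold (edgeR adjusted p = 0.0505). Irf1 had 0.63 (0.31 to 0.94, edgeR adjusted p = 0.329). Between PD-L1high and PD-L1low cells 3 of 3 classical and 5 of 8 loading genes were higher, as was Irf1 (1.17, edgeR adjusted p = 0.000446), while Nlrc5 did not pass (0.97, edgeR adjusted p = 0.503). Median log2 fold changes between PD-L1high and control cells were 1.35 and 1.26 for the classical and loading lists.

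Genes whose pattern was most like that of a member were looked up by Pearson correlation of log2 CPM over the 11 libraries, which fall into the 3 groups. For H2-T23 they were Parp12 (0.98), the tapasin gene Tapbp (0.98) and H2-D1 (0.97). For H2-T22 they were Ogfr (0.98), Erap1 (0.98) and the granzyme B inhibitor gene Serpinb9 (0.98), and for H2-Q4 Parp9 (0.98), the TRAIL gene Tnfsf10 (0.98) and Irf1 (0.98). For the Qa-2 genes they were Gm5431, Gbp7 and Gbp10 (0.99, 0.99 and 0.98) for H2-Q6 and Zbp1, Oasl2 and Stat2 (0.99, 0.98 and 0.98) for H2-Q7. H2-M3 had Smcr8 (0.94), Pnpla2 (0.94) and Ptbp3 (0.93), and H2-T24 had Trim24 (0.91), Setd1a (0.91) and Airn (0.90). By Spearman correlation 1 of the 3 named genes stayed for H2-T22 (Ogfr), H2-Q4 (Irf1), H2-Q7 (Stat2) and H2-M3 (Pnpla2), and none for H2-T23, H2-T24 and H2-Q6.

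Leukocytes also express these genes. The study's sorting panel, as described for islets at a higher IFNγ concentration, excluded hematopoietic cells (CD45, TER119) and endothelial cells (CD31), and leukocyte markers were read in the same libraries. The lymphocyte markers Cd3e, Cd3g, Nkg7, Klrd1 and Klrc1 had no count in any library, and the summed level of the 8 T, NK and B cell markers was 0 to 1.03 CPM in PD-L1high, 0 to 0.994 CPM in PD-L1low and 0.537 to 1.78 CPM in control cells. Of 7 macrophage and dendritic cell markers, 3 (Adgre1, Lyz2 and Itgax) had no count, and the summed level was 6.20 to 17.6 CPM in PD-L1high, 2.82 to 5.18 CPM in PD-L1low and 3.80 to 4.89 CPM in control cells. The list member that differed between the groups was Cd74, the class II invariant chain gene, at 12.8, 3.50, 5.50 and 5.71 CPM in PD-L1high cells, 0.662, 0.444 and 1.54 CPM in PD-L1low cells, and 1.40, 0.375, 1.39 and 0.0896 CPM in control cells. In control libraries the alpha cell markers summed to 323 to 1388 CPM and the delta cell markers to 6.82 to 33.4 CPM, and the part of other endocrine cells in the levels of the 8 genes was not tested.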

How the data were processed

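Beta cells were sorted by FACS with antibodies to EpCAM, CD24 and CD71, a panel in which CD45, TER119 and CD31 antibodies exclude hematopoietic and endothelial cells, and RNA was made into strand-specific, random-primed, rRNA-depleted libraries read as pairs of 75 bases. Per the labels and methods, the authors mapped reads with STAR 2.5.2b to GRCm38.p6 and quantified genes with RSEM, whose version is not given in the sources used here. The deposited expected counts (estimated counts per gene, not normalized) and the TPM values computed by the authors were used, with 1 file per library. Expected counts were rounded, which changed no library's total by more than 0.000388%. TPM values enter only comparisons between genes.

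Symbols were matched for 55141 of 55487 genes. Genes were kept by filterByExpr (count minimum 10), which left 16252, and fitted in edgeR 4.0.16 (R 4.3.3) with TMM scaling, group and replicate number in the model and a robust quasi-likelihood test. The replicate number stands for the batch term that the methods name without defining it. All genes were adjusted together by Benjamini-Hochberg, threshold 0.05. The 95% intervals are per gene and were not adjusted. Ratios to H2-K1 (pseudocount 0.5) were tested with exact permutations in scipy 1.17.1. Alternatives used DESeq2 1.42.0, limma 3.58.1, other scaling and filters, no replicate term, each library left out, and summed near copies. Tests were checked on simulated data. Read depth was 10422038 to 15810817 counts per library, and no 2 libraries of a group were copies. Positions and shared windows came from GENCODE M21 on GRCm38 and promoters from RefSeq.

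Members and gene lists were chosen with earlier results of these data known. The rule for named genes takes all 8 members, up to 4 genes of each pathway list by smallest p, and the 3 genes most like each tested member (mean of at least 1 CPM). The other genes named (Cd274, Cd74, Ppy, Pyy and further genes of the pathway lists) were chosen after their values were seen. Some genes of the pathway and marker lists are not reported here.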

Additional observations from a re-analysis of the deposited data

Results flagged for a closer look

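Within groups of 4 libraries, the gap between the highest or lowest library and its nearest neighbour was set against Dixon's 95% critical value for the 8 genes in PD-L1high and control cells, 16 groups in all. In 3 of the 16, all in control cells, it was exceeded, where chance flags about 1 in 20. H2-Q6 was at 3.72 CPM in control replicate 1, with the other 3 at 0.675 to 1.03 CPM, and H2-Q7 was at 4.58 CPM in the same library, with the others at 0.975 to 1.52 CPM. H2-T23 was at 28.4 CPM in control replicate 2, with the others at 21.7 to 22.7 CPM. Control replicate 1 is also the library with the highest mitochondrial share (13.3%).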

How the results depend on the processing

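The 5 members called higher in PD-L1high against control cells, and against PD-L1low cells, were called under every alternative run, with each library left out included, and no member was called lower in any. Between PD-L1low and control cells 0 members were called, against 2 with no filter and with DESeq2, 1 with limma-voom, 0 to 2 with a library left out, and 2 without control replicate 1 and no replicate block, a setting chosen after seeing the data. The number of all genes called was 161 between PD-L1high and control cells, 13 between PD-L1low and control cells and 119 between PD-L1high and PD-L1low cells. In that order it was 328, 91 and 354 with no filter, 249, 47 and 203 with DESeq2, and 249, 23 and 180 with limma-voom. Leaving out 1 library gave 110 to 269, 8 to 43 and 64 to 143. The counts moved by over 1.5 times without control replicate 2 (269), PD-L1high replicate 1 (41), control replicate 1 (43) and PD-L1low replicate 2 (8 and 77), and without PD-L1high replicates 2 (76) and 3 (64) and PD-L1low replicates 3 and 4 (78 each). The count was 36 between PD-L1low and control cells without control replicate 1 and no replicate block.

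With no replicate block, 127, 12 and 88 genes were called in the same order, and 5, 0 and 5 members. Same-numbered libraries correlated in their deviations from group means at -0.33 to 0.41 (median 0.12, 10 pairs), against a median of -0.04 for 30 pairs with different numbers, so the data do not show that the numbers pair the libraries.

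Members that were not called changed sign in 9 cases, all with 1 library left out. The range over libraries left out was -0.615 to 0.048 for H2-T24 between PD-L1high and control cells, -0.827 to 0.028 for H2-T24, -0.053 to 0.027 for H2-T23 and -0.430 to 0.054 for H2-M3 between PD-L1low and control cells, and -0.329 to 0.579 for H2-T24 between PD-L1high and PD-L1low cells, on the log2 scale. The cause of these changes was not tested. Ratios to H2-K1 kept their direction with TPM (pseudocount 0.1) and with each library left out. Depth limits H2-T10 and the control levels of H2-Q6 and H2-Q7, which rest on 9.25 to 59.4 counts.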
